A study of Caenorhabditis elegans with 8 samples.

Results

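The 6 cathepsin genes and 1 small-RNA gene of Caenorhabditis elegans described here were followed in L2 larvae that differed in redox state. They are the cathepsin B-type cysteine proteases cpr-1, cpr-4, cpr-5 and cpr-6, the cathepsin D-type aspartic proteases asp-1 and asp-4, and F44C4.8, which lies opposite cpr-4. Their 7 rows were taken by sequence name from a count table of 45461 rows. The worms carried N2jrIs2[Prpl-17::Grx1-roGFP2], a glutathione redox sensor driven by the rpl-17 promoter, in both groups. The groups are 4 oxidized and 4 reduced biological replicates, numbered 1, 2, 3 and 5, each of about 10000 worms grown at 20 °C on live E. coli OP50, and whole larvae were extracted. The labels do not state how long the larvae were fed or how oxidized and reduced worms were separated. For replicate 5 one label gives the opposite redox state to the others. Fold changes without it are given for the tested rows of the 7. For the list, marker and other genes named, no values without it are given.

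Cathepsins are made as inactive precursors and work in acid compartments, where the cysteine type cuts proteins with a cysteine and the aspartic type with a pair of aspartates. In the worm the intestine is both the digestive organ and the main store of lysosome-like granules, and cysteine and aspartic proteases of these families carry out much of its protein digestion. The cpr-1 gene is known for gut-specific expression and asp-1 for expression in intestinal cells. The CPR-4 protein can be secreted and is known as a signal released by irradiated animals, and ASP-4 is known for its part in necrotic death of worm neurons. F44C4.8 is annotated as 21ur-14330, a piRNA; piRNAs are small RNAs that guide the Argonaute protein PRG-1, mainly in the germline.

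Library totals ran from 635990 to 1089259 counts, so that 3 counts, the lowest level read as signal, stood for 2.75 to 4.72 CPM. In CPM, that is counts scaled to library size with TMM factors, most cathepsin rows lay not far above that floor. Of the 7 rows, 6 passed the filter on low counts; asp-4 did not. The 6 protease rows together held between 79 counts (reduced replicate 5) and 580 counts (oxidized replicate 1) per library. Because whole larvae were extracted, fewer intestinal cells and less RNA per cell cannot be told apart in any of these values. The labels do not state how strand was handled in the counting, and whether a row holds reads of its own strand was not tested.

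Coordinates come from the WBcel235 annotation; the labels name no build. On chromosome V, cpr-1 (row C52E4.1) spans 11975551 to 11976756, cpr-4 (F44C4.3) spans 6614674 to 6615851 and cpr-5 (W07B8.5) spans 1132598 to 1134036. The asp-1 gene (Y39B6A.20), with a single exon, spans 19049562 to 19050752 on the same chromosome. On chromosome X, cpr-6 (C25B8.3) spans 6607207 to 6609045 in 8 exons and asp-4 (R12H7.2) spans 13218985 to 13221462 in 6 exons. F44C4.8 covers the 21 bases from 6614915 to 6614935 of chromosome V, on the reverse strand, inside the coding part of exon 2 of cpr-4. The asp-4 exons share 33 bases with the 3′ end of R12H7.4 on the other strand. No annotated exon on either strand overlaps cpr-1, cpr-5, cpr-6 or asp-1.

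No row of the 7 was called different between oxidized and reduced worms. Of the 6 tested, 0 passed an adjusted p of 0.05, and 0.216% of all 2315 tested rows did (edgeR quasi-likelihood test, Benjamini-Hochberg adjusted). At an unadjusted p under 0.05 there was 1 of 6, cpr-6, beside 5.27% of all tested rows, or 2.98% counted as higher alone. DESeq2 and limma voom also called 0 of the 6. A replicate block in edgeR gave 0 of the 6 as well, with 15 rows called over the table in place of 5, or 0.648%. The log2 fold change was above 0 for 4 of the 6 and below 0 for 2, with a median of 0.78, beside a median of −0.05 and a share above 0 of 45.8% over all tested rows. In all 6 the oxidized and reduced libraries overlapped, and 3.02% of all tested rows did not overlap.

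**Figure D1:**
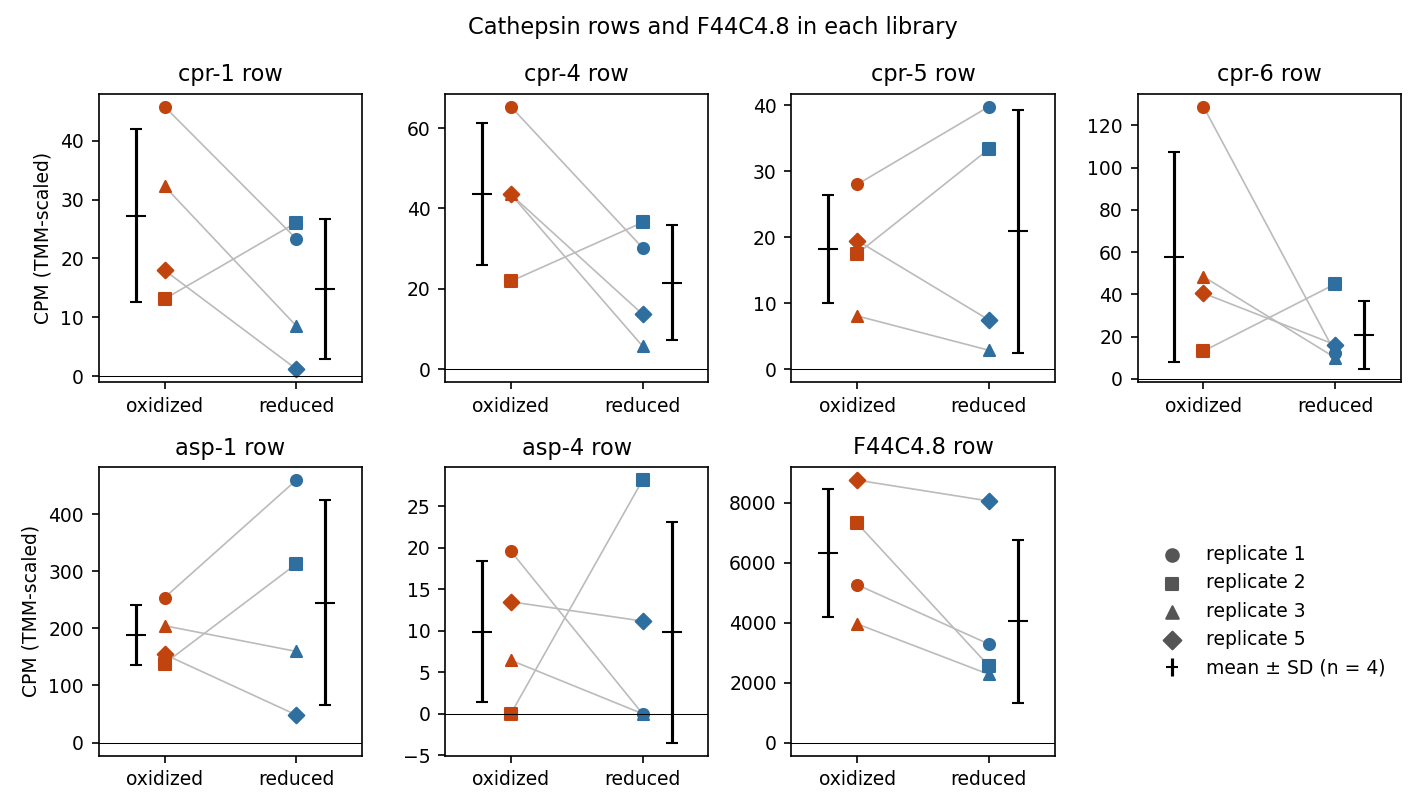
TMM-scaled CPM of each of the 7 rows in the 4 oxidized and 4 reduced libraries; marker shapes give the replicate number, grey lines join libraries of the same number, and black bars give the mean and SD. The F44C4.8 lines all run higher on the oxidized side, while the replicate 2 lines of the protease rows run lower.

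The cathepsin B-type rows gave mean levels in oxidized worms from 0.875 to 2.77 times those in reduced worms. The cpr-6 row, which had the highest of these ratios, stood at 129 CPM in oxidized replicate 1, 13.1 in replicate 2, 48.4 in replicate 3 and 40.5 in replicate 5, against 12.4, 44.9, 9.98 and 16.1 CPM in the reduced libraries of the same numbers. One oxidized library, replicate 1, with 138 counts, lay far above the rest, and reduced replicates 2 and 5 lay within the oxidized range. The means were 57.7 ± 49.8 CPM in oxidized and 20.8 ± 16.2 CPM in reduced worms (SD, n = 4 each). The log2 fold change was 1.48 (SE 0.66), with an edgeR adjusted p of 0.916. It was 0.61 without oxidized replicate 1 and 2.25 without reduced replicate 2, so it moved with each of these 2 libraries. Without replicate 5 it was 1.51, and with the labels of replicate 5 exchanged 0.98.

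The cpr-4 row stood at 65.4, 21.9, 43.5 and 43.5 CPM in oxidized replicates 1, 2, 3 and 5, against 30.2, 36.5, 5.70 and 13.7 CPM in the reduced ones. It was higher in the oxidized library in 3 of 4 pairs, and oxidized replicate 2 fell among the reduced values. Means were 43.6 ± 17.8 CPM in oxidized and 21.5 ± 14.3 CPM in reduced worms (SD, n = 4 each), and the log2 fold change of 1.01 had an SE of 0.61 (edgeR adjusted p = 0.999). It was 0.87 without replicate 5 and 0.35 with its labels exchanged.

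The cpr-1 row, named for the gut cysteine protease, was higher and lower in the same pairs as cpr-4. It had 45.8, 13.1, 32.3 and 18.004 CPM in oxidized replicates 1, 2, 3 and 5, against 23.3, 26.1, 8.56 and 1.24 CPM in the reduced ones. The reduced replicate 5 value rests on 1 count, with an exact 95% Poisson interval of 0.0253 to 5.57 counts that covers counting error only. Its log2 fold change, 0.91 with an SE of 0.69, did not pass (edgeR adjusted p = 0.999), with means of 27.3 ± 14.8 CPM in oxidized and 14.8 ± 11.9 CPM in reduced worms (SD, n = 4 each). Leaving out replicate 5 gave 0.69, and exchanging its labels 0.31. The cpr-5 row was the one cysteine protease row with a lower mean in oxidized worms: 28.01, 17.5, 8.06 and 19.5 CPM in oxidized replicates 1, 2, 3 and 5, against 39.8, 33.4, 2.85 and 7.45 CPM in the reduced ones. Here the highest and the lowest values both belonged to reduced libraries. On the log2 scale the difference was −0.15 with an SE of 0.70 (edgeR adjusted p = 0.999), and it was above 0 without oxidized replicate 3 (0.04), reduced replicate 1 (0.29) or reduced replicate 2 (0.23). Without replicate 5 it was −0.41, and −0.59 with its labels exchanged.

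The aspartic protease asp-1 had by far the most counts of the 6 protease rows, 1383 in all. It stood at 254, 139, 205 and 155 CPM in oxidized replicates 1, 2, 3 and 5, against 460, 313, 160 and 48.4 CPM in the reduced ones. The reduced libraries held both the highest values, replicates 1 and 2, and the lowest, replicate 5, and the oxidized values lay between. Means were 188 ± 52.3 CPM in oxidized and 245 ± 180 CPM in reduced worms (SD, n = 4 each). The difference on the log2 scale, −0.37 with an SE of 0.47, did not pass (edgeR adjusted p = 0.999). It turned to 0.11 without reduced replicate 1, and was −0.61 without replicate 5 and −0.75 with its labels exchanged.

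The asp-4 row held 70 counts in all and was at 0 in 3 libraries. In oxidized replicates 1, 2, 3 and 5 it had 21, 0, 4 and 9 counts, against 0, 27, 0 and 9 in the reduced ones. The totals, 34 counts in oxidized and 36 in reduced libraries, gave no direction, and the 0 values allow up to 3 counts in a library, by counting error only. Without the filter on low counts its log2 fold change was 0.04 (SE 0.89, edgeR adjusted p = 0.992), where 0.0757% of 13216 rows were called. R12H7.4, which meets asp-4 at the 3′ ends, was detected in all 8 libraries, at 22.5 to 74.2 CPM in oxidized (median 61.7) and 32.8 to 79.5 CPM in reduced ones (median 49.8). The zeros of asp-4 were thus not shared by its neighbour.

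Per kilobase of exon, asp-1 was the highest of the 6 protease rows, at 182 ± 106 CPM per kilobase over the 8 libraries (SD). Next came cpr-6 at 31.2 ± 31.4, cpr-4 at 28.8 ± 16.8, cpr-1 at 19.5 ± 13.1, cpr-5 at 16.2 ± 11.03 and asp-4 at 6.76 ± 7.08 CPM per kilobase. The order was set on these same libraries, so neighbours in it are described without a test. The asp-1 row was above cpr-6 in 8 of 8 libraries, by 2.79 ± 1.37 on the log2 scale (SD). The cpr-4 row was above cpr-1 in 7 of 8, by 0.70 ± 1.00, a difference smaller than its spread. The cpr-6 row was above cpr-4 in 4 of 8 libraries, and its mean log2 ratio to cpr-4, −0.12 ± 0.73, pointed against their order above. The cpr-1 row was above cpr-5 in 4 of 8, by 0.19 ± 1.27. These differences were also smaller than their spread. The asp-4 row was at 0 in 3 libraries; in the 5 where it had counts, cpr-5 stood at 0.808 to 1.75 times its level per kilobase and was higher in 4. The cpr genes resemble each other in sequence, and reads of related genes may be split or dropped by the counting.

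The make-up of the protease counts varied from library to library. The asp-1 row took 46.9%, 67.9%, 59.6% and 53.4% of the counts in the 6 rows in oxidized replicates 1, 2, 3 and 5, against 81.3%, 64.9%, 85.5% and 49.4% in the reduced ones. The 4 cysteine protease rows took 32.1% to 49.5% of them in oxidized and 14.5% to 39.2% in reduced libraries, ranges that overlap. Their summed level was 268, 65.6, 132 and 122 CPM in oxidized replicates 1, 2, 3 and 5, against 106, 141, 27.1 and 38.5 CPM in the reduced ones. Summed over all 6, levels ran from 204 to 542 CPM in oxidized and from 98.1 to 566 CPM in reduced libraries.

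**Figure D2:**
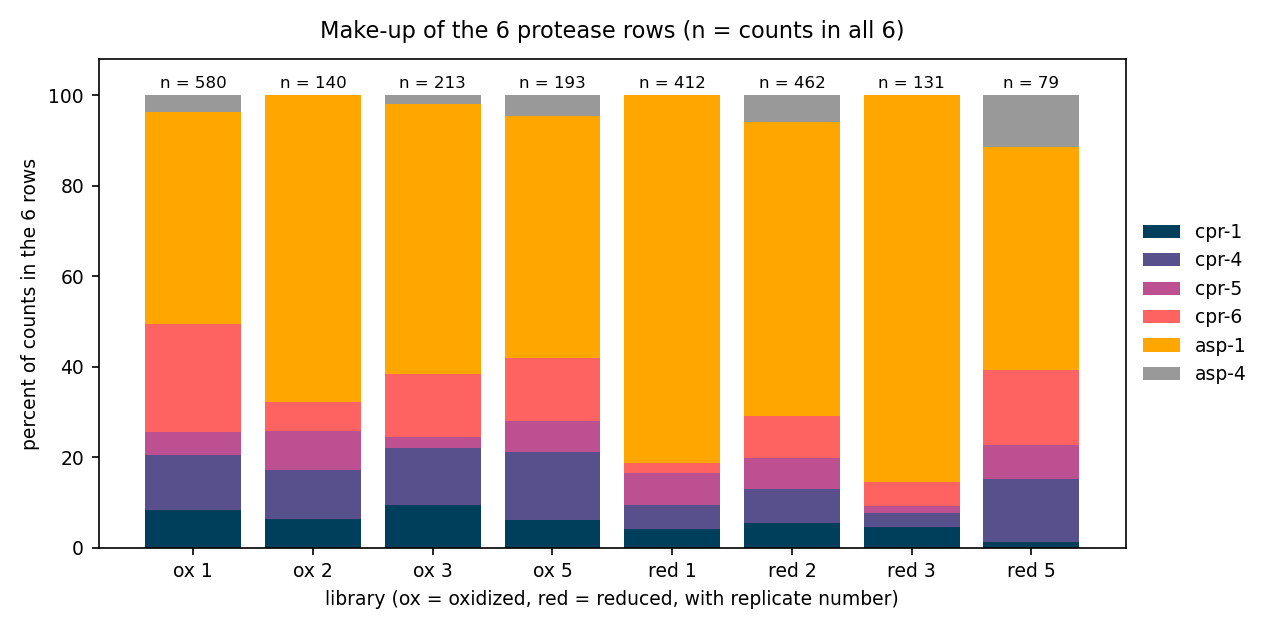
Percent of the counts in the 6 protease rows that each row took, in each library, with the number of counts above each bar. The asp-1 share runs from 46.9% to 67.9% in oxidized and from 49.4% to 85.5% in reduced libraries.

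Pairs of the same replicate number pointed different ways. In replicate 2 all 5 tested protease rows were lower in the oxidized library, with oxidized to reduced ratios of 0.503 for cpr-1, 0.599 for cpr-4, 0.524 for cpr-5, 0.293 for cpr-6 and 0.443 for asp-1. In replicates 3 and 5 all 5 were higher, by 1.28 to 7.63 times in replicate 3 and by 2.51 to 14.5 times in replicate 5, where the 14.5 rests on the single count of cpr-1. The replicate 5 pair is the one with conflicting redox labels, and with those exchanged all 5 rows are lower in its oxidized library. In replicate 1 the cpr-1, cpr-4 and cpr-6 rows were higher, cpr-6 by 10.4 times, and cpr-5 and asp-1 lower. Over all tested rows, 51.3%, 49.7%, 51.7% and 51.7% were higher in the oxidized library of replicates 1, 2, 3 and 5. Libraries of replicates 1 and 2 carry the date June28 in their titles, and those of replicates 3 and 5 July7 and August6. Within the July7 and August6 pairs a further tag in the titles differs between the oxidized and reduced library. Within June28 (2 and 2 libraries) the edgeR log2 fold changes were 0.32 for cpr-1, 0.43 for cpr-4, −0.65 for cpr-5, 1.32 for cpr-6 and −0.98 for asp-1. Within the later dates they were 2.37 for cpr-1, 2.11 for cpr-4, 1.73 for cpr-6 and 0.81 for asp-1, and cpr-5 was too low to test. None of these passed, and the later fits include the replicate 5 pair. Without that pair replicate 3 is the only later pair, with ratios of 1.28 for asp-1 and 2.83 for cpr-5. The cpr-5 ratio rests on 5 counts in the oxidized and 2 in the reduced library. That reduced value lies under the 3 counts read as signal.

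**Figure D3:**
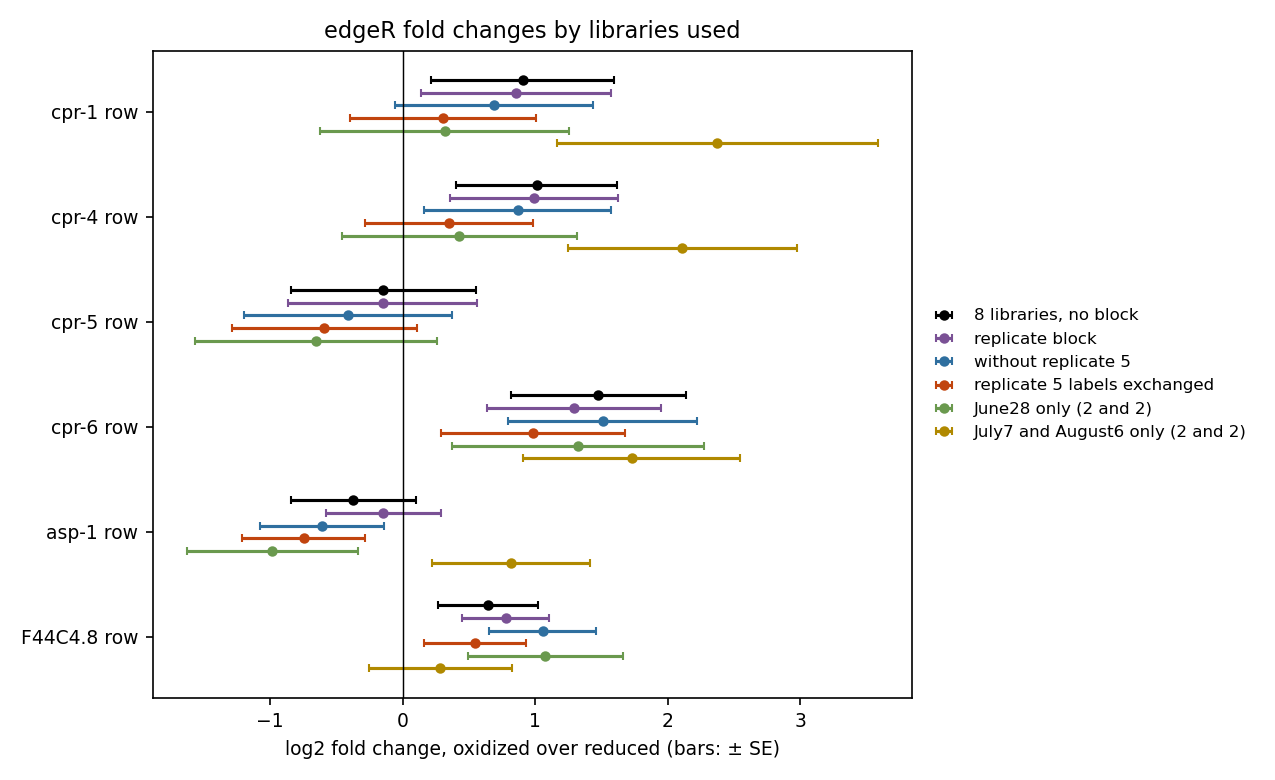
edgeR log2 fold change, oxidized over reduced, with its SE, for the 6 tested rows in fits that use all 8 libraries, the replicate block, or subsets of the libraries. The asp-1 row lies at −0.98 in the June28 libraries and at 0.81 in the later ones, and the F44C4.8 row lies above 0 in all 6 fits shown.

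The small row opposite cpr-4 held far more counts than cpr-4 itself. F44C4.8 held 31871 counts over the 8 libraries and cpr-4 213, a ratio of 149.6. Among 15363 rows annotated as piRNAs, 15127 had no count in any library, and F44C4.8 had the most of all, 20.5% of the counts in these rows; the next highest, LLC1.95, held 14324. By mean level it ranked 33 of the 2315 tested rows. The reads, 50 nt from each end of a fragment, are longer than its 21 bases, so its counts come from fragments that reach beyond it, and no level per base is given for it.

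**Figure D4:**
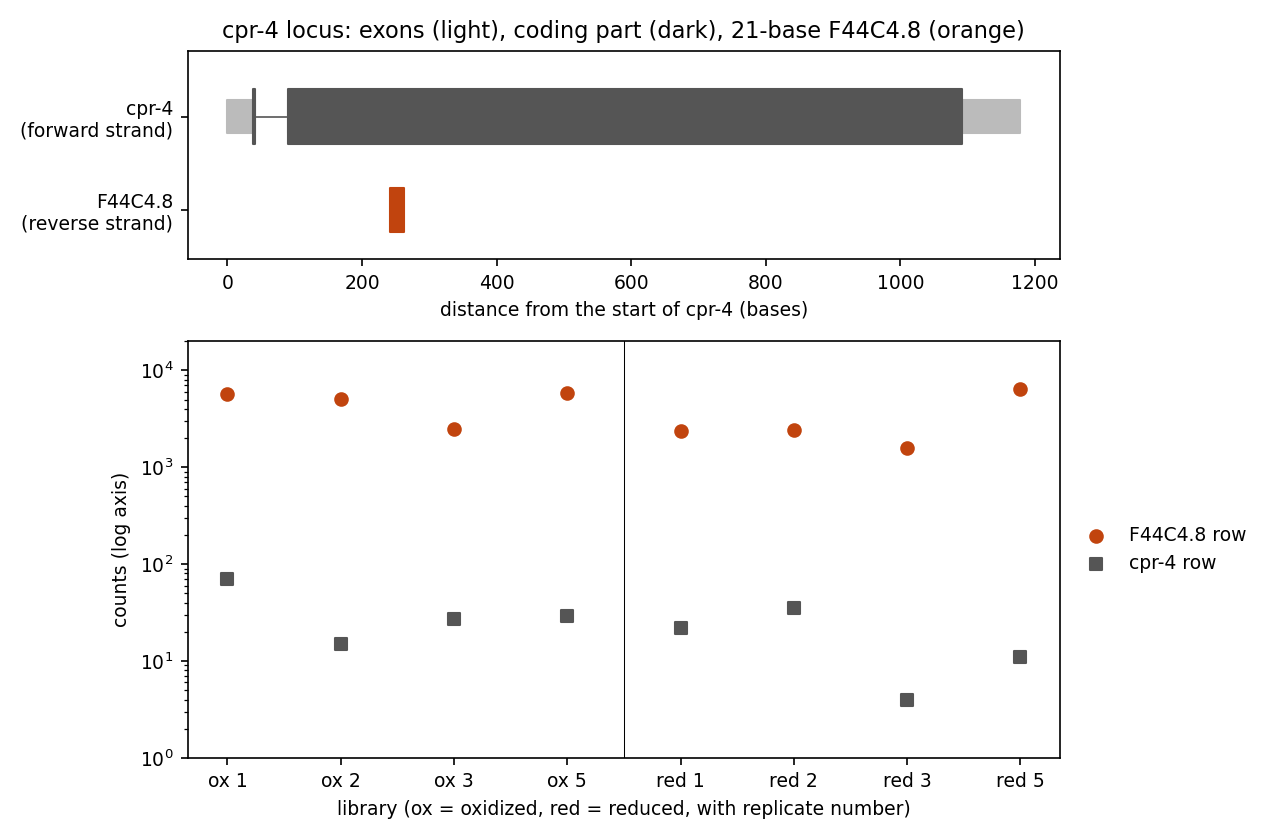
Upper panel: exons of cpr-4 on the forward strand with their coding part, and F44C4.8 on the reverse strand, against the distance from the start of cpr-4 in bases; F44C4.8 begins 241 bases in. Lower panel: counts of both rows in each library on a log axis, where F44C4.8 lies between 1596 and 6489 counts and cpr-4 between 4 and 70.

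The F44C4.8 row stood at 5266, 7316, 3959 and 8754 CPM in oxidized replicates 1, 2, 3 and 5, against 3284, 2553, 2276 and 8057 CPM in the reduced ones. It was higher in the oxidized library in all 4 pairs, as were 7.21% of all tested rows. The groups overlapped because reduced replicate 5 lay above 3 of the 4 oxidized libraries, while the other 3 reduced libraries lay below all of them. Oxidized to reduced ratios were 1.60, 2.87, 1.74 and 1.09 in replicates 1, 2, 3 and 5. Means were 6324 ± 2130 CPM in oxidized and 4043 ± 2710 CPM in reduced worms (SD, n = 4 each), a log2 fold change of 0.65 with an SE of 0.38 (edgeR adjusted p = 0.999). With the replicate block it was 0.78 (SE 0.33, edgeR adjusted p = 0.708). Without reduced replicate 5 it was 1.26, and without both libraries of replicate 5 it was 1.06 (SE 0.40, adjusted p = 0.662). Exchanging the labels of replicate 5 gave 0.54 (SE 0.39, adjusted p = 0.998).

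The ratio of the 2 rows of the locus varied between libraries. F44C4.8 held 80.6, 335, 90.9 and 201 times the counts of cpr-4 in oxidized replicates 1, 2, 3 and 5, against 109, 69.9, 399 and 590 times in the reduced ones. The cpr-4 row thus took 1.23% (Wilson 95% interval 0.972% to 1.55%) of the counts of both rows in oxidized replicate 1, against 0.169% (0.0945% to 0.303%) in reduced replicate 5, the lowest share; these intervals cover counting error only. The highest was 1.41% in reduced replicate 2. The log2 ratio of their counts was 7.19 ± 0.961 in oxidized and 7.61 ± 1.43 in reduced libraries (SD, n = 4 each). The difference, −0.42, was smaller than the spread (exact two-sided permutation p = 0.629, where the 70 relabellings allow no p below 0.0286). Without replicate 5 the difference was −0.056 (exact permutation p = 0.9, smallest possible 0.1).

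Other genes of the same enzyme classes and of the lysosome were read from lists by gene family. Of the other cathepsin B genes 1 of 7 rows was tested and 0 called: cpr-9, with 25.5 ± 21.95 CPM in oxidized and 19.2 ± 16.1 CPM in reduced worms (SD, n = 4 each) and a log2 fold change of 0.55. The next most abundant, Y65B4A.2 and F32H5.1, held 45 and 23 counts in all. Among the other papain-type cathepsins 3 of 8 were tested and 0 called, with a median of 0.62. The cpl-1 row, named for cathepsin L, had a log2 fold change of 0.62 (SE 0.59), and cpz-2 −0.22. The cpz-1 row, named for cathepsin Z, had 1.21 (SE 0.68, edgeR adjusted p = 0.999). It was higher in the oxidized library in 4 of 4 pairs, as were 7.21% of all tested rows. The cpz-2 row shares exon bases with M04G12.3 on the other strand.

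Of 15 other aspartic protease rows 4 were tested and 0 called, with a median of −0.19. The asp-2 row held 4262 counts, more than asp-1, at 736 ± 123 CPM in oxidized and 624 ± 60.8 CPM in reduced worms (SD, n = 4 each), a log2 fold change of 0.24 (SE 0.31). Its range over libraries, 569 to 879 CPM, was narrow beside that of asp-1. The asp-6 row had −0.35 (SE 0.57), asp-3, a cathepsin D-type gene known with asp-4 from neuronal necrosis, −0.44 (SE 0.53), and asp-5 −0.02. Of the 2 cystatin inhibitors, which block papain-type proteases, cpi-2 was tested (0.27, SE 0.75) and cpi-1 was too low.

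The vacuolar proton pump, which acidifies lysosomes, had 8 of 20 rows tested and 0 called, 2 above and 6 below 0, with a median of −0.32. Its most abundant rows were vha-19 (0.17), vha-10 (−0.23) and vha-14 (−0.50). Saposin-like rows had 4 of 27 tested and 0 called, with a median of −0.08, led in level by spp-16 (0.05), spp-14 (−0.20) and spp-5 (−0.34). Of 27 further lysosome and gut granule genes hlh-30, a transcription factor of lysosomal genes, was the 1 tested (−0.77, SE 0.78); lipl-5 and nuc-1, named for a lipase and a nuclease, held 57 and 51 counts. Of 16 lysozyme rows 0 passed the filter on low counts, and the most abundant, lys-8, lys-1 and ilys-5, held 92, 83 and 68 counts. The 6 yolk protein rows held 2 counts in all, both of vit-1.

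**Figure D5:**
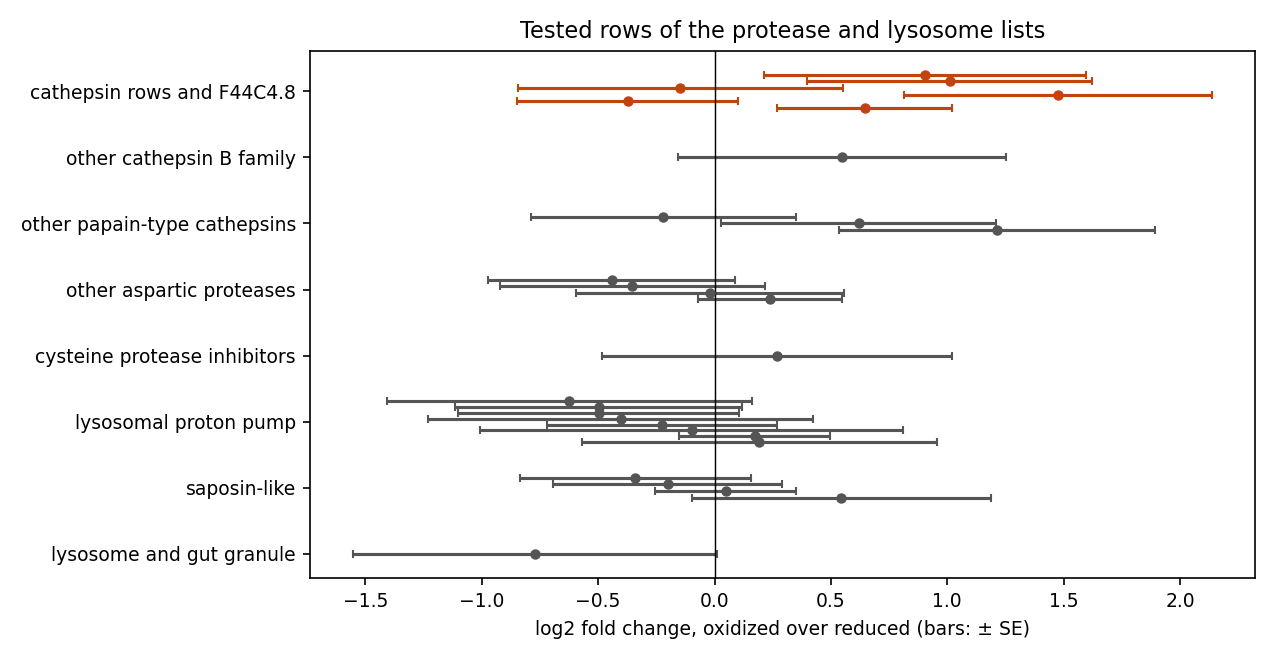
edgeR log2 fold change, oxidized over reduced, with its SE, for every tested row of the 7 lists that had one, with the cathepsin rows and F44C4.8 at the top. No row passed the adjusted threshold; hlh-30 lies lowest at −0.77 and cpr-6 highest at 1.48.

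Intestinal markers were detected mostly at low levels in their own rows, and whether these rows hold reads of their own strand was not tested. Of 15 marker rows all had at least 1 count, but the defining regulators elt-2 and elt-7 held 6 and 1 counts over the 8 libraries and the esterase gene ges-1 held 20. Their summed level ran from 239 to 346 CPM in oxidized (median 304) and from 334 to 427 CPM in reduced libraries (median 385). Of 6 tested, 0 were called, with 1 above and 5 below 0 and a median of −0.36. The pho-1 row, named for an intestinal acid phosphatase, had −0.09 (SE 0.42), act-5, the microvillar actin, −0.49 (SE 0.49), and ifb-2, an intestinal intermediate filament, −0.23 (SE 0.54). On the other strand, EGAP2.1 opposite pho-1 (731 counts) held 425 counts, with a log2 fold change of 0.04 (SE 0.46). W06D12.2 opposite fat-5 (9 counts) held 1. Marker rows of hypodermis summed to 12746 to 28985 CPM in oxidized and 4977 to 23840 CPM in reduced libraries, body wall muscle to 749 to 1566 CPM in oxidized and 733 to 2583 in reduced ones, and pharynx to 197 to 357 CPM in oxidized and 194 to 737 in reduced ones. Hypodermal rows lay above 0 in 4 of 4 tested, with a median of 1.28, and muscle rows in 2 of 9, with a median of −0.63; 0 of either were called. Neuron markers summed to 32.1 to 88.5 CPM in oxidized and 41.0 to 114 CPM in reduced libraries, and germline markers to 2.80 to 33.9 CPM in oxidized and 7.45 to 44.9 in reduced ones. The part of any tissue in the protease values was not tested.

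Some rows followed the members closely across the 8 libraries. The likeness is given as a description only, since the libraries differ in depth and date. Of 1826 rows of at least 20 CPM, the row most like asp-1 in log2 CPM was hsp-3, an endoplasmic reticulum chaperone (Pearson's r = 0.98 over 8 libraries), followed by col-58, grl-4, vab-10 and rla-0 (0.96 to 0.95). The mean of the 5 tested protease rows was followed most closely by T05G5.1 (0.95), ost-1, col-48, crt-1 and F41F3.3. F44C4.8 was followed by F21A3.10 (0.95), F48E3.2, C02E7.16, Y59H11AR.9 and K12H4.10, of which 4 are annotated as non-coding. Among the members themselves, r was highest for cpr-1 with asp-1 (0.85) and cpr-4 with cpr-6 (0.82), and lowest for asp-1 with F44C4.8 (−0.60).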

How the data were processed

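Per the labels' protocols, 100 ng of total RNA per library was depleted of ribosomal RNA and made into stranded libraries with 15 cycles of PCR, read as paired 50 nt ends, although the molecule field reads polyA RNA. Tools listed, per the submitters' processing notes, were Bowtie2 2.2.1, Cuffdiff 2.1.1, Cufflinks, FastQC 0.11.3 and TopHat2 2.0.13, with no role or order stated. The authors deposited raw counts per gene, with no normalization recorded. A further 2 columns match no sample in the labels and were not used. Of 45461 rows 44933 matched 1 gene of the WBcel235 annotation.

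After filterByExpr and TMM scaling, oxidized libraries were tested against reduced ones with edgeR 4.0.16 in R 4.3.3 (glmQLFit, robust, legacy = FALSE; Benjamini-Hochberg over all tested rows). DESeq2 1.42.0 and limma voom (limma 3.58.1) were alternatives, and the fit was tested on simulated data. The edgeR p-values set the group difference against the spread between these libraries, estimated in part over all tested rows. The permutation p is the share of relabellings with a difference at least as large. Oxidized and reduced libraries of 1 number have the same date in the titles, and pairs were formed on that basis (for June28, on the number as well). The titles also carry a tag whose meaning they do not give. It differs between the oxidized and reduced library of the July7 and August6 pairs, and not within the June28 pairs. In the later pairs tag and redox state cannot be told apart. Deviations from group means within pairs 1, 2, 3 and 5 correlated at 0.05, −0.11, 0.09 and 0.26. The members, listed by sequence name, and the lists were chosen with earlier results of these data known. Named rows are the 7 members, genes overlapping them, the 3 of highest mean CPM of each list (1 for yolk proteins, whose other rows are at 0), and the 5 rows most like asp-1, F44C4.8 and the mean of the tested protease rows by Pearson correlation of log2(CPM + 0.5). Other names were chosen after their values were seen.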

Additional observations from a re-analysis of the deposited data

Results flagged for a closer look

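The asp-1 and cpr-5 rows pointed opposite ways at the 2 sets of dates: in both June28 pairs they were lower in the oxidized library, and in the July7 and August6 pairs higher. As a difference of log2 fold changes, later dates minus June28, this came to 1.76 for asp-1 (SE 0.84, edgeR adjusted p = 0.997) and 2.00 for cpr-5 (SE 1.51, adjusted p = 0.997), a test chosen after the pair ratios were seen. The August6 pair is replicate 5, which has conflicting redox labels: with those exchanged its ratios, 3.19 for asp-1 and 2.62 for cpr-5, fall below 1 and the pattern ends. Replicate 3 alone stood at 1.28 for asp-1 and 2.83 for cpr-5. That cpr-5 ratio rests on 5 counts against 2 in the reduced library, which is under the floor of 3 counts. A tag in the titles also differs within the July7 and August6 pairs, so date and tag cannot be told apart. The edgeR interaction called 0 of 2315 rows, and 13.4% of all tested rows showed such opposite pairs. A check of 16 groups of 4 libraries for a lone high or low value found 0, and about 0.8 would be found by chance.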

How the results depend on the processing

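No member was called under any of the 21 alternatives, in which the adjusted p of the 6 tested rows was at least 0.222. The cpr-1, cpr-4, cpr-6 and F44C4.8 rows kept a positive log2 fold change in all 21, from 0.31 to 2.37, 0.35 to 2.11, 0.40 to 2.53 and 0.28 to 1.26. Limma voom turned the sign of cpr-5 to 0.31 and of asp-1 to 0.014, and asp-1 was 0.81 in the July7 and August6 libraries alone; the cause was not tested. Leaving out 1 library at a time gave −0.49 to 0.29 for cpr-5, −0.68 to 0.11 for asp-1, 0.45 to 1.41 for cpr-1, 0.69 to 1.44 for cpr-4, 0.61 to 2.25 for cpr-6 and 0.41 to 1.26 for F44C4.8. The group difference in the F44C4.8 to cpr-4 ratio, −0.42, ran from −0.92 to 0.089 on that basis (above 0 without reduced replicate 5). With the labels of replicate 5 exchanged it was 0.34. Compared within the replicate pairs the mean difference equals −0.42 by arithmetic, and only the test differs (exact p = 0.75, smallest possible 0.125).

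Calls over all rows numbered 5, against 9 with DESeq2, 3 with limma voom, 3 with legacy = TRUE, 10 without the filter, 15 with the replicate block, 0 with the labels of replicate 5 exchanged, 0 in the June28 libraries, 1 in the later ones, and 1 to 15 with a library or a replicate left out. The replicate block changed no other call among the members. Apart from asp-1 the protease rows held 70 to 276 counts over the 8 libraries, and the 4 tested had an SE of 0.61 to 0.70 on the log2 scale, beside 0.47 for asp-1 with 1383 counts and 0.38 for F44C4.8 with 31871. Library spread and counting error were not separated.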

Other observations

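Among intestinal genes the ifc-2 row, named for an intestinal intermediate filament, was chosen after its values were seen. In all 4 pairs it was lower in the oxidized library, and the share of all tested rows that did so was not counted. It had 8.70 ± 6.23 CPM in oxidized and 29.3 ± 6.12 CPM in reduced worms (SD, n = 4 each), ranges of 0 to 13.5 and 23.3 to 35.7 CPM that do not overlap, as for 3.02% of all tested rows. The log2 fold change was −1.76 (SE 0.71, edgeR adjusted p = 0.773), so it did not pass. The fatty acid desaturase row fat-6 had −1.22 (SE 0.71, adjusted p = 0.999). The other way, vha-6, the 1 tested intestinal marker above 0, had 0.19 (SE 0.76).

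At some other loci of the protease and lysosome lists the row on the other strand was the more abundant, all named after their values were seen. Rows were set against each other when they shared at least 20 exon bases, and the counts are those of whole rows. R01B10.4, F49C12.14 and C48E7.6 below are annotated as protein-coding, with 1172, 729 and 6485 exon bases. The cystatin row cpi-2 held 107 counts and R01B10.4 opposite it 1232 (log2 fold change −0.39, SE 0.40). R01B10.3, also opposite cpi-2, held fewer counts than cpi-2, 86. The proton pump row vha-17 held 67 and F49C12.14 opposite it 2256 (−0.25, SE 0.37). The saposin-like row spp-15 held 13 and C48E7.6 opposite it 1584 (0.38, SE 0.36). At asp-2, vha-19 and spp-16 the order was the other way, with 4262, 2985 and 9325 counts against 82, 6 and 492 for T18H9.5, B0546.2 and F32D8.7. The opposite row held more at cpz-2 (242 against 269 for M04G12.3) and vha-5 (73 against 107 for F35H10.10). The same held, at low counts, for cln-3.3 (3 against 8) and lipl-4 (0 against 21 for K04A8.15). Opposite F32H5.1, vha-18, gba-3, spp-19 and ppt-1 the row was at 0, below its host.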
